A study of Mus musculus with 36 samples.

Results

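Transcripts of 8 genes that encode repressors of the circadian clock were followed in mouse kidney: the period genes Per1, Per2 and Per3, the cryptochromes Cry1 and Cry2, Ciart, Bhlhe40 and Bhlhe41. They were found by gene symbol, and all 8 were among the 24883 rows of the deposited tables, of which 24066 carry a symbol that occurs once. The kidneys came from wild-type C57BL/6 males under alternating 12 h light and 12 h dark phases. From 6 weeks of age they had free access to normal chow or to a high-fat diet, and 16 weeks is given as the age at harvest. Kidneys were collected at zeitgeber time (ZT, hours after lights on) 0, 4, 8, 12, 16 and 20, with 3 mice in each of the 12 groups and so 36 libraries of whole kidney RNA. No gene was altered in any group. All mice have the same stated age at harvest, so the data hold no earlier stage of the feeding.

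The clock is a feedback loop in which CLOCK and BMAL1 activate genes through E-boxes in their promoters, and some of the proteins made in this way return to the nucleus to shut CLOCK and BMAL1 down. PER and CRY proteins act together as the main inhibitory complex, CIART (also called CHRONO) binds BMAL1, and BHLHE40 and BHLHE41 (DEC1 and DEC2) compete for the same E-boxes. In kidney, as in other peripheral organs, these loops run in most cell types and answer to feeding, glucocorticoids and body temperature as well as to light. Whole tissue RNA cannot separate a lower share of a cell type from less RNA per cell.

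Promoter windows of RefSeq on GRCm38.p6, 250 bases before to 50 bases after the start, were matched by symbol for 6 of the 8 genes. There were 7 windows, since 2 starts of Per1 are listed. The annotated Per1 gene, given below, begins before both of these, and its own start was not searched. Per2 and Bhlhe40 had no entry. The windows below are shown because they hold a letter match to the E-box or the D-box, kinds of element that the clock loops can act through. They are printed 5′ to 3′ on the strand of the gene, with capitals marking the E-box CACGTG or the D-box TTATGTAA. They lie at chr3:95882179-95882478 (Ciart, minus strand), chr10:85185005-85185304 (Cry1, minus strand), chr11:69098699-69098998 (Per1, first start, plus strand), chr6:145865371-145865670 (Bhlhe41, minus strand) and chr4:151044616-151044915 (Per3, minus strand).
Ciart: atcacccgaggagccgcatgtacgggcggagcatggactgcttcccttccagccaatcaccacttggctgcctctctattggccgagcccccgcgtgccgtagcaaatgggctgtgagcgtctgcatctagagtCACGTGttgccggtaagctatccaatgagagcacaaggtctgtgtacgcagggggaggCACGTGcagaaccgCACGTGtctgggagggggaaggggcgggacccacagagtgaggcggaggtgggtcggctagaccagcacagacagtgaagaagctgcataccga
Cry1: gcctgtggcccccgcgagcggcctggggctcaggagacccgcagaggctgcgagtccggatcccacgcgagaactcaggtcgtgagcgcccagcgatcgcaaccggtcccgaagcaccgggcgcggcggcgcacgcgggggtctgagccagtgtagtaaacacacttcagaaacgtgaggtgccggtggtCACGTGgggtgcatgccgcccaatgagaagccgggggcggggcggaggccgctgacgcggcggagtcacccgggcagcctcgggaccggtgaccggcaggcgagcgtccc
Per1: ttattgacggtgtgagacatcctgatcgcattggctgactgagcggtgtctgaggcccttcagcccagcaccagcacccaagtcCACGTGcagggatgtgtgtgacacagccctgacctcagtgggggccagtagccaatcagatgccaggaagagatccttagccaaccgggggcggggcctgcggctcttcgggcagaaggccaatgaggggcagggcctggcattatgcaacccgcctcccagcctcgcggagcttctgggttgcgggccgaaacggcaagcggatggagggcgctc
Bhlhe41: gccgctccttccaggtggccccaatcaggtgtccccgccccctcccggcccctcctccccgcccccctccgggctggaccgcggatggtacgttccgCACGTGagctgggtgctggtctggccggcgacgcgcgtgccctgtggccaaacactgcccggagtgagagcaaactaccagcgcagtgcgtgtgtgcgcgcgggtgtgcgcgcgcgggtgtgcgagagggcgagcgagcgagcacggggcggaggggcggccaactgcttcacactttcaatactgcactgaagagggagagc
Per3: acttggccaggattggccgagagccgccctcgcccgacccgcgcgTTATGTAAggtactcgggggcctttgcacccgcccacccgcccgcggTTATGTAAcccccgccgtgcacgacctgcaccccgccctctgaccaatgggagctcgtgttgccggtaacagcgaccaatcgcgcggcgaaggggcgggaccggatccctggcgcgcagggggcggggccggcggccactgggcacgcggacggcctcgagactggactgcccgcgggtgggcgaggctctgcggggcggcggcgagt

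The Ciart window held 3 E-boxes, and those of Cry1, the first start of Per1 and Bhlhe41 held 1 each. An E-box was present in 7.15% of all 32851 promoter windows, and 3 or more in 0.0883%. The Per3 window held 2 D-boxes, the sites of the PAR bZIP factors DBP, TEF and HLF and of their repressor NFIL3. A D-box, searched as TTATGTAA or TTACGTAA on both strands, was present in 1.06% of all windows, and 2 or more in 0.0244%. No window held a cAMP response element (TGACGTCA or TGACGTAA, present in 2.28% of windows) or the REV-ERB core TAGGTCA (2.61%). The GC box GGGCGG was in all 7 windows and in 35.7% of windows at large; the Cry2 window at chr2:92434020-92434319 and the second Per1 window at chr11:69099902-69100201 held this box and no E-box or D-box. These matches describe letters in a short window and show no binding.

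The 8 genes are protein-coding and lie on 7 chromosomes of GRCm38 in the GENCODE M21 annotation: Per1 at chr11:69095217-69109960, Per2 at chr1:91415982-91459324, Per3 at chr4:151003652-151044665, Cry1 at chr10:85131700-85185064, Cry2 at chr2:92403646-92434043, Ciart at chr3:95878503-95882251, Bhlhe40 at chr6:108660629-108666925 and Bhlhe41 at chr6:145858243-145865558.

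The deposited unit is FPKM, in which the fragments of a transcript are scaled for its length and for the size of its library, so levels may be roughly compared between genes. Markers of proximal tubule were high in all 36 libraries, with a summed level of 5 genes between 2345 and 3411 FPKM, and relative depth ranged from 0.333 to 1.42. Adrenal genes (7 markers) summed to 45.2 to 2547 FPKM in 4 normal chow libraries, ZT0 replicate 5, ZT4 replicates 2 and 3 and ZT16 replicate 4, against at most 1.63 FPKM in the other 14 and 0.862 FPKM in the 18 high-fat libraries, where Th and Pnmt were listed at 0 in all 18. Adipocyte genes (6 markers) summed to 77.8 to 1418 FPKM under normal chow and to 0.645 to 253 FPKM under the high-fat diet. The markers did not change alike. Medians on chow and on the high-fat diet were 323 and 10.4 FPKM for Cfd and 41.6 and 17.5 for Adipoq. Lep alone of the 6 went the other way, with 0.691 and 3.74 FPKM. The sum is therefore not taken as a measure of the share of fat tissue, which was not tested.

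In 3 libraries the other clock genes lay nearer to another time than to their own. Over 11 tested genes (the activators, nuclear receptors and PAR bZIP factors, none of them a repressor studied here), 33 libraries were nearest to the mean of the other mice of their own time. The normal chow library of ZT8 replicate 5 lay 0.501 log2 units from its own time and 0.250 from ZT12. The normal chow library of ZT12 replicate 2 lay 0.583 from its own time and 0.233 from ZT8. The high-fat library of ZT16 replicate 4 lay 0.639 from its own time and 0.312 from ZT20. The slope of expression over transcript GC content also differed within both chow groups. Per 10 points of GC it was 0.173 log2 units in ZT8 replicate 5 against -0.179 and -0.0450 in the other ZT8 mice. It was -0.102 in ZT12 replicate 2 against 0.289 and 0.111 in the other ZT12 mice. Such a spread was not particular to these groups. The chow mice of ZT4, each nearest to its own time, were at 0.421, 0.0849 and -0.371. The 3 libraries nearer to another time keep their labels below. Counts of calls, differences in fitted peaks and the group means that turn on them are also given without them; without them no fitted peak or peak-to-trough difference of a tested member moved by more than its SE.

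Bhlhe40 was the most abundant of the 8 transcripts and Bhlhe41 the least. Over the 36 libraries Bhlhe40 ranged from 5.72 to 31.4 FPKM with a median of 16.8, and Bhlhe41 from 0.0995 to 0.770 FPKM with a median of 0.240. Bhlhe40 was above Per1, the next in order, in 36 of 36 libraries. The means below it followed as Per1 (4.98), Cry2 (4.74), Ciart (3.68), Per2 (2.94), Per3 (1.91) and Cry1 (1.87 FPKM), but neighbours in this order changed places with the time of day: Per1 was above Cry2 in 13 of 36 libraries, Ciart above Per2 in 16 and Per3 above Cry1 in 18.

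**Figure D1:**
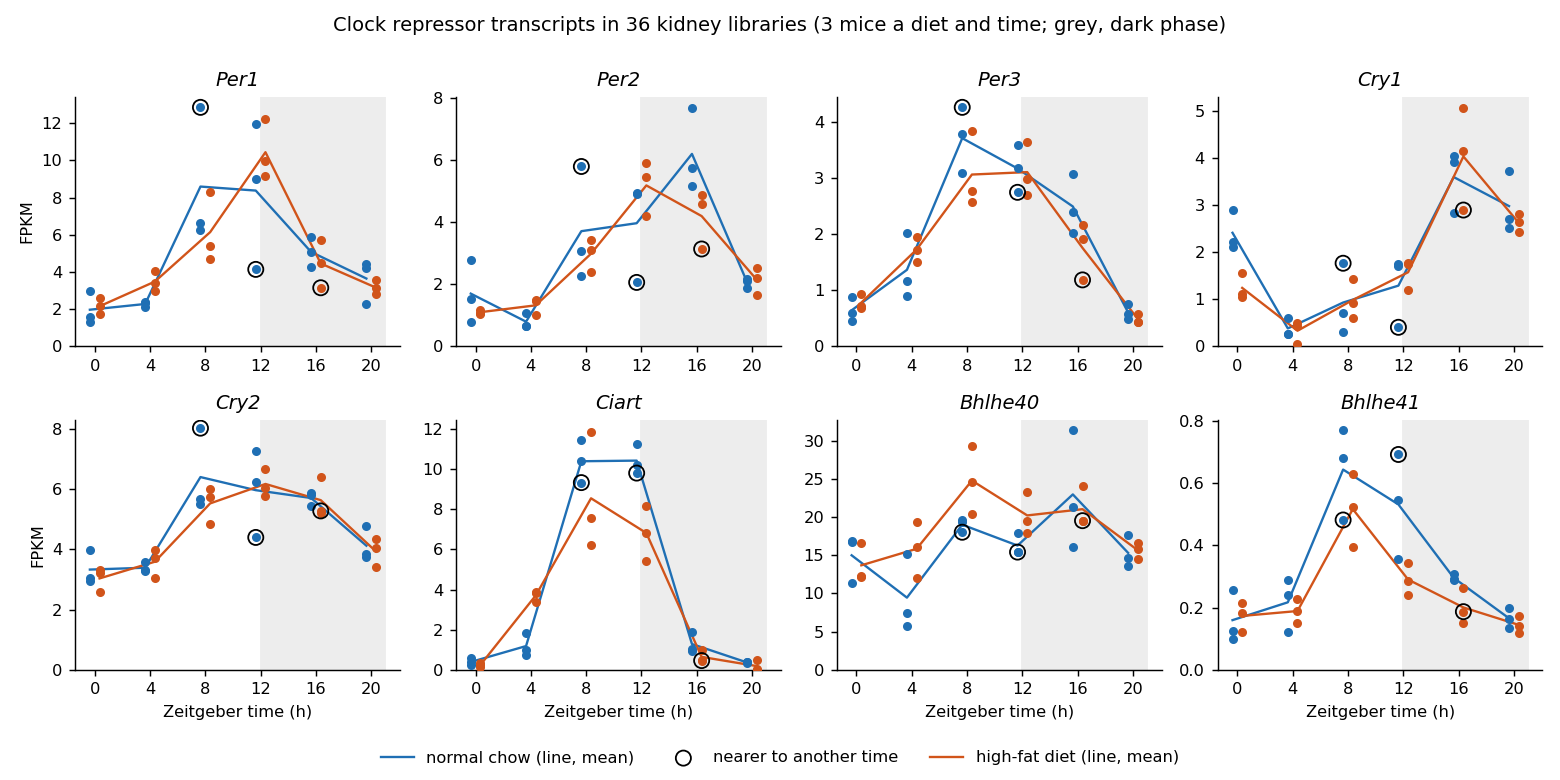
FPKM of the 8 transcripts (vertical axes, each starting at 0) against zeitgeber time in h, with 1 point per library, a line through the mean of 3 mice in each group, and the dark phase in grey. Rings mark the 3 libraries nearer to another time; Ciart swings from near 0 at ZT20 to about its highest means at ZT8 and ZT12 under both diets.

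Per1, a target of both the clock and stress signals, was lowest at ZT0 and highest around ZT8 to ZT12. Under normal chow its 3 mice read 1.33, 1.60 and 2.99 FPKM at ZT0, 6.28, 6.64 and 12.8 at ZT8, and 4.14, 9.01 and 12.0 at ZT12. Under the high-fat diet they read 1.72, 2.16 and 2.60 FPKM at ZT0, 4.71, 5.41 and 8.30 at ZT8, and 9.16, 9.95 and 12.2 at ZT12. The highest chow value at ZT8 and the lowest at ZT12 were the ringed libraries, and without those 2 mice every value at ZT8 was below every value at ZT12 under both diets. The highest chow group mean was at ZT8 with all libraries and at ZT12 without them (10.5 FPKM against 6.46 at ZT8, 2 mice each). By ZT20 the level had returned to 3.65 ± 1.21 FPKM on chow and 3.16 ± 0.370 on the high-fat diet (SD, n = 3).

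Per2, whose protein binds CRY in the inhibitory complex, had its highest group mean at ZT16 on chow and at ZT12 on the high-fat diet, with all libraries and without the ringed ones. Its chow mice read 0.643, 0.661 and 1.09 FPKM at ZT4 and 5.15, 5.74 and 7.68 at ZT16, the highest group. Its high-fat mice read 1.05, 1.07 and 1.18 FPKM at ZT0, the lowest group, and 4.18, 5.44 and 5.91 at ZT12, the highest. Those means were 6.19 ± 1.32 FPKM on chow (SD, n = 3) and 5.18 ± 0.896 on the high-fat diet, where ZT16 stood at 4.19 ± 0.926. At ZT16 all 3 high-fat mice (3.13, 4.58 and 4.86 FPKM) were below all 3 chow mice, a difference of -0.51 ± 0.29 log2 units that did not pass the test (limma, adjusted p = 0.810); the lowest of them is the ringed library, and without the 3 ringed libraries the difference was -0.34 ± 0.25 (adjusted p = 0.843).

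Per3, the period gene that behavioural rhythms can do without, was high from ZT8 to ZT12. Its chow mice read 3.10, 3.78 and 4.26 FPKM at ZT8 and 0.482, 0.583 and 0.750 at ZT20. Its high-fat mice read 2.57, 2.77 and 3.84 FPKM at ZT8 and 0.444, 0.444 and 0.581 at ZT20. The ZT8 and ZT20 groups did not overlap in either diet, and the group mean of ZT16 was 2.49 ± 0.533 FPKM on chow and 1.76 ± 0.507 on the high-fat diet (SD, n = 3).

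Cry1, the stronger of the cryptochrome repressors and the latest of the 8 transcripts, was highest at ZT16. The chow mice read 2.83, 3.91 and 4.04 FPKM at ZT16, 2.12, 2.21 and 2.90 at ZT0 and 0.262, 0.272 and 0.613 at ZT4. The high-fat mice read 2.89, 4.15 and 5.05 FPKM at ZT16, 1.05, 1.12 and 1.56 at ZT0 and 0.0624, 0.433 and 0.505 at ZT4. At ZT0 the high-fat mice were all below the chow mice, by -0.74 ± 0.32 log2 units (limma, adjusted p = 0.273), which did not pass the test. The lowest value, 0.0624 FPKM, came from the shallowest library.

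Cry2, the other cryptochrome, had a shallow cycle on a higher base. Its group means ran from 3.33 ± 0.564 FPKM at ZT0 to 6.41 ± 1.41 at ZT8 on chow, and from 3.04 ± 0.401 at ZT0 to 6.18 ± 0.461 at ZT12 on the high-fat diet (SD, n = 3). Its lowest library read 2.58 FPKM and its highest 8.03, the ringed chow library of ZT8. Without the ringed libraries the chow mean was 5.59 FPKM at ZT8 and 6.76 at ZT12 (2 mice each), so that the highest group was ZT12 in both diets.

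Cry2 exceeded Cry1 in 36 of 36 libraries, and how far it did so depended on the time. The ratio of the group means was 8.86 on chow and 10.8 on the high-fat diet at ZT4, when Cry1 was lowest, and 1.59 and 1.40 at ZT16. At ZT20 the ratio was 1.38 on chow and 1.50 on the high-fat diet. At ZT0 it was 1.38 on chow, with libraries from 1.33 to 1.45, and 2.44 on the high-fat diet, with libraries from 2.06 to 2.97, so the ranges of the diets did not overlap at that time; the difference in this ratio was not tested. Among the period genes, Per1 was above Per3 in 36 of 36 libraries and above Per2 in 33 of 36, and the 3 exceptions were all at ZT16, where the ratio of Per1 to Per2 fell to 0.820 on chow and 1.06 on the high-fat diet. Per2 was below Per3 at ZT4 in both diets (ratios 0.583 and 0.766) and above it at ZT20 (3.40 and 4.37).

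**Figure D2:**
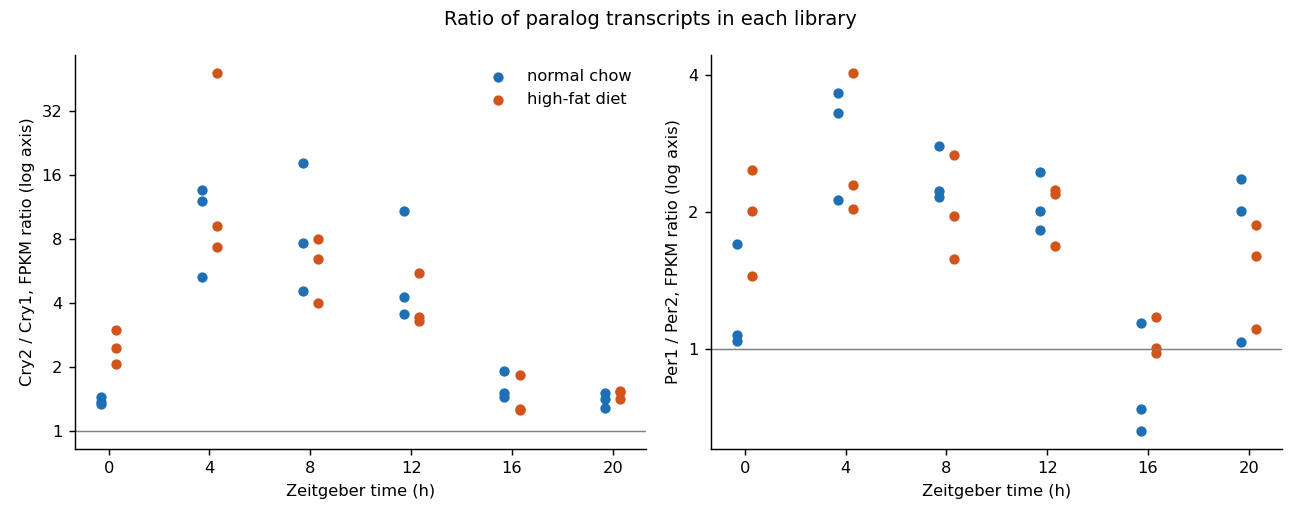
Ratio of Cry2 to Cry1 (left) and of Per1 to Per2 (right) in FPKM on a log axis against zeitgeber time in h, with 1 point per library and 3 libraries per diet and time. The Cry2 to Cry1 ratio stays above 1 in all 36 libraries and is lowest from ZT16 to ZT0, while the Per1 to Per2 ratio comes down to about 1 at ZT16.

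Ciart had the deepest cycle of the 8. Its chow mice read 9.33, 10.4 and 11.5 FPKM at ZT8, 9.81, 10.2 and 11.2 at ZT12 and 0.332, 0.365 and 0.385 at ZT20. Its high-fat mice read 6.22, 7.56 and 11.9 FPKM at ZT8, 5.45, 6.83 and 8.18 at ZT12, and 0.0536 and 0.499 at ZT20, where the library of replicate 3 listed it at 0. On chow the high plateau covered ZT8 and ZT12 alike and ended by ZT16 (0.931, 1.05 and 1.87 FPKM), and on the high-fat diet the highest group was ZT8.

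Bhlhe40, which is also induced by hypoxia and by many growth signals, had a shallow cycle on a high base. Its chow mice read 5.72, 7.43 and 15.2 FPKM at ZT4, the lowest group, and 16.1, 21.4 and 31.4 at ZT16, the highest. Its high-fat mice read 12.2, 12.3 and 16.6 FPKM at ZT0, the lowest group, and 20.4, 24.6 and 29.4 at ZT8, the highest. The 2 lowest chow values at ZT4 are libraries with adrenal transcripts. Bhlhe41, its close relative, was at 0.644 ± 0.147 FPKM at ZT8 on chow and at 0.517 ± 0.117 on the high-fat diet, and fell to 0.166 ± 0.0329 and 0.144 ± 0.0262 at ZT20 (SD, n = 3). Bhlhe40 exceeded Bhlhe41 in 36 of 36 libraries, by 29.5 to 108 times in group means.

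Rhythm within a diet was tested by fitting a cosine with a period of 24 h to log2(FPKM + 0.5) of the 18 libraries of that diet with limma, over the 11144 genes with a mean of at least 1 FPKM, at a Benjamini-Hochberg adjusted p under 0.05. Of the 8 members 7 passed the filter on level; Bhlhe41, with a mean of 0.294 FPKM, did not, and its values come from a fit of all genes with any signal. Under normal chow 6 of the 7 tested were rhythmic, all but Bhlhe40 (adjusted p = 0.134), where 7.77% of all genes tested were called. Under the high-fat diet 7 of 7 were rhythmic, with Bhlhe40 at an adjusted p of 0.0152, where 7.3% of all genes were called. Leaving out the 3 ringed libraries left the counts at 6 and 7. A rank test over the 6 times (Kruskal-Wallis, permutation) called 3 of 7 on chow, Per3, Cry1 and Ciart, with Per1, Per2 and Cry2 at adjusted p of 0.0650, 0.0563 and 0.0570, and 7 of 7 on the high-fat diet. Bhlhe41 in its own fit gave adjusted p = 0.00235 on chow and 0.0218 on the high-fat diet. Whether Bhlhe40 differed between the diets in rhythm is answered by the test of the difference given below, not by these 2 calls, and a fit that pools the spread of all 36 libraries turned them round (adjusted p = 0.0294 on chow and 0.122 on the high-fat diet).

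The fitted peak-to-trough difference was 4.21 ± 0.32 log2 units (SE) for Ciart on chow and 4.31 ± 0.25 on the high-fat diet, which is 18.5-fold and 19.8-fold on the scale of FPKM + 0.5. Among the 11144 genes it stood in place 6 on chow and in place 2 on the high-fat diet. Per3, Cry1, Per2 and Per1 formed a middle set, with 2.13 ± 0.20, 2.10 ± 0.33, 1.97 ± 0.34 and 1.89 ± 0.31 on chow, and with 1.92 ± 0.15, 2.15 ± 0.22, 1.88 ± 0.14 and 1.76 ± 0.20 on the high-fat diet. Cry2 and Bhlhe40 cycled least of the tested members, with 0.91 ± 0.15 and 0.85 ± 0.27 on chow and 0.96 ± 0.10 and 0.73 ± 0.15 on the high-fat diet. The median fitted fold of the 7 tested members was 3.91 on chow and 3.68 on the high-fat diet, beside 1.53 and 1.46 for all genes called rhythmic. The added 0.5 shrinks the cycles of low transcripts: with 0.1 added instead, the difference of Ciart rose to 5.20 on chow and 5.91 on the high-fat diet, and that of Cry1 to 2.80 and 2.92.

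The members peaked in a sequence that ran from the late light phase into the dark phase. On chow the fitted peaks were at ZT 10.1 ± 0.3 h (SE) for Ciart, 10.7 ± 0.4 for Per3, 11.9 ± 0.6 for Per1, 12.3 ± 0.6 for Cry2, 14.0 ± 0.7 for Per2 and 18.5 ± 0.6 for Cry1, with 14.8 ± 1.2 for Bhlhe40, whose rhythm did not pass on chow. On the high-fat diet they were at 8.71 ± 0.23 h for Ciart, 9.77 ± 0.31 for Per3, 11.3 ± 0.4 for Per1, 11.3 ± 0.8 for Bhlhe40, 12.3 ± 0.4 for Cry2, 13.1 ± 0.3 for Per2 and 16.9 ± 0.4 for Cry1. Neighbours in this order were not all apart. On chow the steps beyond 2 SE of the difference, taken over the same 18 libraries, were Cry2 to Per2 (1.78 ± 0.51 h) and Bhlhe40 to Cry1 (3.65 ± 1.36 h). On the high-fat diet they were Ciart to Per3 (1.06 ± 0.44 h), Per3 to Per1 (1.56 ± 0.56 h) and Per2 to Cry1 (3.75 ± 0.43 h). Samples lie 4 h apart, so a fitted peak between them rests on the cosine shape.

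**Figure D3:**
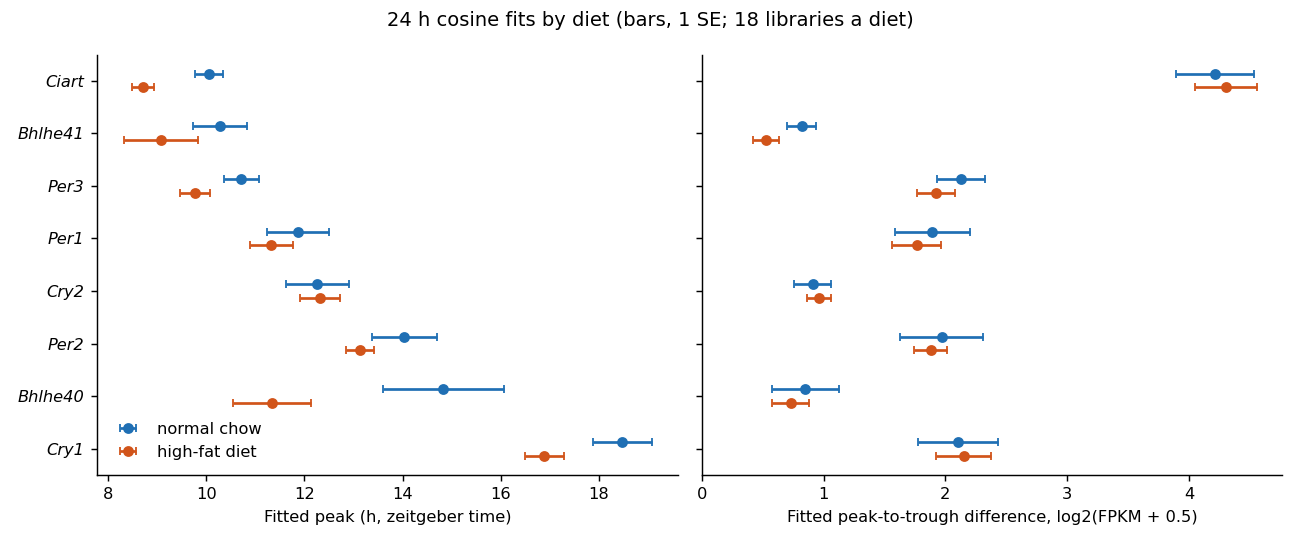
Fitted peak in h of zeitgeber time (left) and fitted peak-to-trough difference in log2(FPKM + 0.5) (right) of the 8 transcripts by diet, with bars of 1 SE from cosine fits over 18 libraries per diet. The peaks run from Ciart to Cry1 in both diets, and the peak-to-trough difference of Ciart, above 4 log2 units, stands apart from those of the other 7.

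The question of whether the high-fat diet changed these rhythms was put to an F test of the interactions of diet with cosine and sine, fitted to all 36 libraries (limma). None of the 7 tested members passed, every adjusted p printing as 1.00, where 3 of 11144 genes (0.0269%) were called; 1 member, Ciart, had an unadjusted p under 0.05 (0.00483), as had 3.17% of all genes. The fitted peak of Ciart was 1.34 ± 0.38 h earlier on the high-fat diet, with a 95% interval of the difference from -2.08 to -0.60 h, and without the 3 ringed libraries the difference was -1.22 ± 0.41 h. For Cry1 the difference was -1.59 ± 0.74 h (95% interval -3.03 to -0.15), for Per3 -0.95 ± 0.48 h (-1.89 to -0.0049), for Per2 -0.90 ± 0.76 h (-2.38 to 0.58) and for Per1 -0.55 ± 0.80 h (-2.11 to 1.02). For Cry2 it was 0.06 ± 0.75 h, an interval of -1.40 to 1.52 that leaves room for more than 1 h either way. These intervals are not adjusted for the number of genes. The F test of the difference in rhythm gave an unadjusted p of 0.116 for Cry1 and 0.119 for Per3 (limma). Of the 6 members rhythmic in both diets, 5 peaked earlier on the high-fat diet with a median difference of -0.93 h, and among the 389 genes rhythmic in both diets 75.8% did, with a median of -0.77 h. Without the 3 ringed libraries the difference was -1.38 ± 0.59 h for Cry1, -0.97 ± 0.49 h for Per3, -0.98 ± 0.57 h for Per2 and -0.58 ± 0.61 h for Per1. Cry2 was then at -0.29 ± 0.58 h, 6 of the 6 peaked earlier with a median of -0.97 h, and 73.9% of 330 genes did, with a median of -0.76 h. The members' median shift is near that of rhythmic genes at large. The amplitude ratio, high-fat over chow, had a median of 0.987 over these 6 members and 0.834 over the 389 genes. Leaving out the 4 libraries with adrenal transcripts keeps 1 chow mouse at ZT4. The difference in fitted peaks was then -1.63 ± 0.86 h for Cry1, -0.54 ± 0.51 h for Per3 and -1.33 ± 0.37 h for Ciart. For Per2 it was -0.31 ± 0.72 h, for Per1 -0.47 ± 0.85 h and for Cry2 0.54 ± 0.83 h.

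Bhlhe40 had the largest fitted shift, -3.49 ± 1.59 h with an interval from -6.60 to -0.37 h, and its difference in rhythm did not pass either (adjusted p of 1.00, unadjusted p = 0.112). The shift of Bhlhe40 was -3.56 ± 1.69 h without the 3 ringed libraries. Without the 4 libraries with adrenal transcripts its chow peak moved to 12.9 ± 2.0 h, the shift to -1.51 ± 2.08 h and its chow peak-to-trough difference from 0.85 to 0.41 log2 units. The part of adrenal RNA in the chow values of Bhlhe40 was not tested beyond this.

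Averaged over the day, no tested member passed the comparison of level between the diets. The test set the mean of the 6 high-fat groups against that of the 6 chow groups on the log2 scale (limma), and 0 of 7 tested members passed, where 5.25% of all genes were called higher and 11.4% lower under the high-fat diet; 1 of the 7, Bhlhe40, had an unadjusted p under 0.05. Over 18 libraries a diet, Bhlhe40 had a lowest, median and highest value of 5.72, 16.4 and 31.4 FPKM on chow and of 12.1, 18.7 and 29.4 on the high-fat diet, a difference of 0.22 ± 0.10 log2 units (SE, adjusted p = 0.131). Leaving out the chow library of ZT4 replicate 4, its highest at that time, raised the difference to 0.28 (limma, adjusted p = 0.0115). That refit keeps only chow mice with adrenal transcripts at ZT4. Leaving out the 4 libraries with adrenal transcripts, which keeps only replicate 4 there, lowered the difference to 0.10 ± 0.09. The other 6 tested members lay between -0.14 ± 0.10 (Ciart) and 0.05 ± 0.12 (Per1) log2 units. Bhlhe41 in its own fit was at -0.13 ± 0.05 log2 units (adjusted p = 0.0647), with medians of 0.288 FPKM on chow and 0.202 on the high-fat diet.

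At single times 1 of the 42 pairs of a tested member and a time passed, Ciart at ZT4. There the chow mice read 0.753, 0.979 and 1.82 FPKM and the high-fat mice 3.38, 3.85 and 3.89, so that the lowest high-fat mouse was above the highest chow mouse. The difference was 1.37 ± 0.25 log2 units (SE, n = 3 per diet; limma, adjusted p = 0.00325) at a time when 1.61% of all genes tested were called. It stood at 1.51 ± 0.33 (adjusted p = 0.00109) without the 4 libraries with adrenal transcripts, which leave 1 chow mouse at ZT4 that is assumed to vary like the other groups. Leaving out each library in turn gave 1.18 to 1.63 log2 units with adjusted p from 0.00156 to 0.0197. A fit on the 6 libraries of ZT4 alone kept the size but not the call (adjusted p = 0.292). At ZT8, where Ciart was at 10.4 ± 1.06 FPKM on chow and 8.55 ± 2.95 on the high-fat diet, the groups overlapped.

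At ZT12 the order was the other way: all 3 high-fat mice were below all 3 chow mice for Ciart, by -0.59 ± 0.25 log2 units (adjusted p = 0.542), which did not pass. Across the 7 tested members 7 of 42 pairs had no overlap between the diets, beside 15.5% of all gene and time pairs, so the share is near the background. Besides the 2 of Ciart these were Per1 at ZT4 (higher on the high-fat diet), Per2 at ZT16 and Cry1 at ZT0 (both lower), and Bhlhe40 at ZT8 and ZT12 (both higher), none of which passed the test. Bhlhe40 at ZT4, with 12.1, 16.1 and 19.4 FPKM on the high-fat diet against the chow values above, differed by 0.81 ± 0.24 log2 units (adjusted p = 0.0832). Without the 4 libraries with adrenal transcripts, which leaves only replicate 4 of chow at ZT4, that difference was 0.03 ± 0.28. Without the chow library of ZT4 replicate 4, which leaves only chow mice with adrenal transcripts, it was 1.19 (limma, adjusted p = 0.00273). The share of all genes called was 1.59% at ZT0, 0.332% at ZT8, 0.368% at ZT12, 0.556% at ZT16 and 0.26% at ZT20, and no member was among them.

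**Figure D4:**
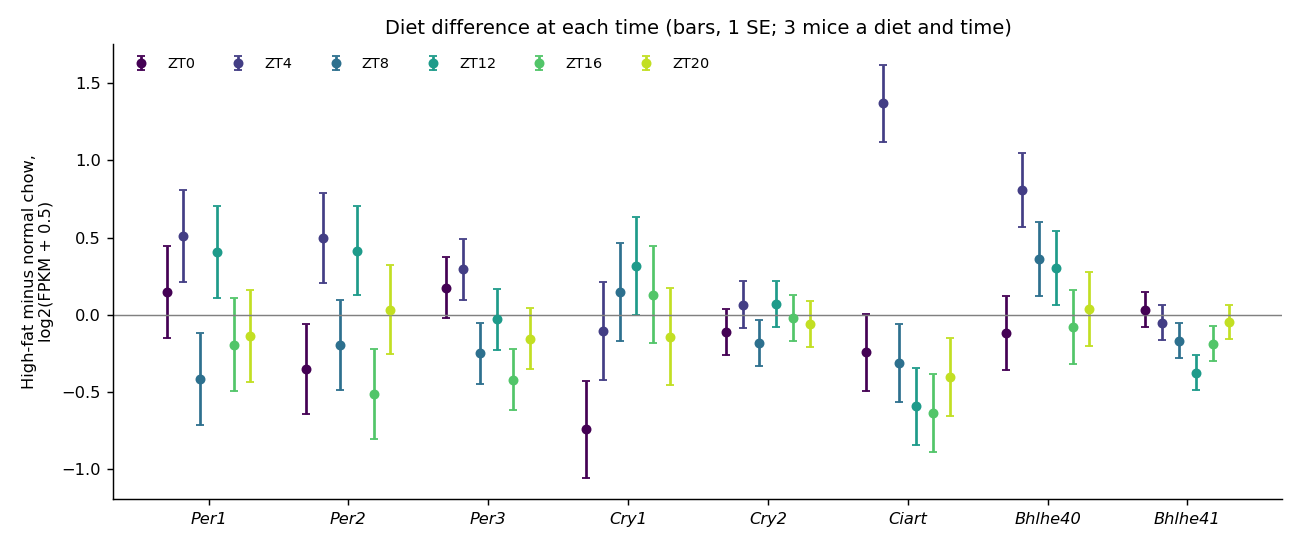
Difference between the diets, high-fat minus normal chow in log2(FPKM + 0.5), of each transcript at each of the 6 times, with bars of 1 SE from a fit of 12 groups of 3 mice. Ciart at ZT4, 1.37 log2 units, is the highest point and the only one of a tested member past the threshold.

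Within a group, deviations from the group mean went together for some pairs of repressors and not for others. Over the 28 pairs of members r ran from -0.29 to 0.76 with a median of 0.33, and 5 pairs were below 0. The deviations from the group mean, over 36 libraries, correlated at r = 0.76 between Per2 and Cry1, 0.75 between Cry1 and Cry2, 0.75 between Per2 and Per3 and 0.73 between Per3 and Bhlhe40. Without the 3 ringed libraries Per1 and Cry1 went from 0.51 to -0.07, Per2 and Cry1 came to 0.50 and Cry1 and Cry2 to 0.51, while Per2 and Per3 stood at 0.76 and Per3 and Bhlhe40 at 0.80. The deviations of the members had r between -0.22 (Per1) and 0.23 (Cry1) with the log2 relative depth of the library. Those of Per3, Bhlhe40 and Bhlhe41 ran against the library's slope over GC content (r = -0.49, -0.57 and -0.50), and those of the other 5 lay between 0.02 and 0.35. The part of depth or base composition in the correlations between members was not tested. Ciart had r between -0.04 and 0.37 against each of the other 7, and Bhlhe41 between -0.29 and 0.37, with 4 of its 7 pairs below 0; without the 3 ringed libraries these ranges were -0.10 to 0.42 and 0.18 to 0.50. These values describe the libraries and carry no test.

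The 3 genes whose 12 group means ran most like each member were ranked by Pearson's r over those means, leaving out unnamed gene models and the members themselves. For the period genes they were Slc25a42 (0.957), Usp2 (0.957) and Ngef (0.936) with Per1, Cml3 (0.977), Tsc22d3 (0.950) and Ctgf (0.945) with Per2, and Wnt5b (0.963), Map2k6 (0.962) and Decr2 (0.961) with Per3. For the cryptochromes they included Apex2 (0.926) and Lonrf3 (0.908) with Cry1, and were Slc25a34 (0.935), Wee1 (0.934) and Tmem57 (0.926) with Cry2. Usp2 encodes a deubiquitinase of clock proteins, Tsc22d3 a glucocorticoid-induced factor and Wee1 a kinase that holds back mitosis. For Ciart they were Clcn2 (0.974), Dbp (0.971) and Gatsl3 (0.950), for Bhlhe40 Upb1 (0.923), Ak4 (0.918) and Dynll2 (0.914), and for Bhlhe41 Inadl (0.924), Klf15 (0.912) and Decr2 (0.911). The points share libraries and no function is inferred from the likeness.

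The partners of the repressors in the loop were called rhythmic in most cases. Of 7 tested activators and nuclear receptors 5 were rhythmic on chow and 6 on the high-fat diet, beside 7.77% and 7.3% of all genes tested: on chow Arntl, which encodes BMAL1, peaked at 22.1 ± 0.2 h with a peak-to-trough difference of 3.82 log2 units, Npas2 at 23.2 ± 0.2 h, and Nr1d1, the repressor REV-ERB alpha, at 6.77 ± 0.34 h, earlier than the fitted peaks of all 8 repressors. The PAR bZIP genes Dbp, Tef and Hlf and their repressor Nfil3 were all rhythmic in both diets, with Dbp at 9.71 ± 0.15 h and Nfil3 at 20.8 ± 0.4 h on chow. Over the day Tef (0.20 ± 0.06 log2 units) and Hlf (0.22 ± 0.06) were higher on the high-fat diet, where 5.25% of all genes were called higher. In these lists 2 genes had a different rhythm between the diets, Dbp (adjusted p = 0.0249) and Npas2 (adjusted p = 0.0302), out of the 3 called among all genes (0.0269%).

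Transcripts of enzymes and partners that act on PER and CRY proteins were called rhythmic in counts close to the share of all genes. Of the 21 tested kinases, ubiquitin ligases and partners 1 was rhythmic on chow, where 7.77% of all genes were, and 2 on the high-fat diet, where 7.3% were. The 1 on chow was Usp2 (peak-to-trough difference 1.52 log2 units, peak 12.7 ± 0.4 h), and the 2 on the high-fat diet were Usp2 and Hdac3, the histone deacetylase used by REV-ERB. Hdac3 had a peak-to-trough difference of 0.34 log2 units there. Btrc (adjusted p = 0.0752 on chow), a ligase subunit for PER, and Csnk1d (0.145), the kinase that marks PER for it, did not pass, with differences of 0.31 and 0.23 log2 units. None of the 21 passed the test of level or of rhythm between the diets.

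Inputs known to act on these promoters were followed through 3 lists, whose counts stand beside 7.77% of all genes rhythmic on chow and 7.3% on the high-fat diet. Of 9 tested glucocorticoid-induced genes 4 were rhythmic on chow and 5 on the high-fat diet. The 4 on chow did not share a peak time. Tsc22d3 peaked at 15.1 ± 0.6 h, Fkbp5 at 15.8 ± 0.9 h, Cdkn1a at 23.3 ± 0.5 h and Mt2 at 5.74 ± 0.88 h. Over the day 3 of the 9 passed the test of level, where 5.25% of all genes were called higher and 11.4% lower on the high-fat diet: Mt2, a metallothionein, was lower on the high-fat diet (-0.82 ± 0.09 log2 units), and Errfi1 (0.42 ± 0.10) and Dusp1 (0.41 ± 0.11) were higher. Of 6 tested genes of the cAMP and immediate early response 1 was rhythmic on chow, Sik1, and 2 on the high-fat diet, Sik1 and Junb. Of 8 tested hypoxia genes 3 were rhythmic on chow and 4 on the high-fat diet, among them Ndrg1, which peaked at 22.8 ± 0.3 h on chow. Egln3, an oxygen sensor of the pathway, was higher over the day on the high-fat diet by 1.11 ± 0.07 log2 units and Ndrg1 by 0.17 ± 0.06, the 2 of this list that passed, beside the 0.22 ± 0.10 of Bhlhe40, which did not pass. The median level difference was 0.07 log2 units for the glucocorticoid list, -0.05 for the cAMP list and 0.08 for the hypoxia list, beside -0.03 for all genes tested and -0.04 for the 7 members. Level differences of list genes, Tef and Hlf included, were not refitted without the 4 chow libraries with adrenal transcripts.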

How the data were processed

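The deposited values are FPKM, 1 table per diet with the same 24883 rows; the submitters' processing notes name CASAVA 1.8.2, Bowtie, Cuffnorm and the mouse build mm10, with the versions of the others not given in the sources used here. Whether both tables came from 1 Cuffnorm run is not given either, so a difference between runs and the diet cannot be told apart in the level comparisons. Groups and replicate numbers were read from the labels; the titles' times were used, since the diet tag of all 36 labels mentions ZT3, at which no mouse was collected. Nothing in the labels ties replicates to cages or days, so p-values measure the spread between these mice. Symbols with more than 1 row (280 symbols, 817 rows) were dropped.

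Values were tested as log2(FPKM + 0.5) in limma 3.58.1 (R 4.3.3, variance trend on), for the 11144 genes whose mean over 36 libraries reached 1 FPKM, with a Benjamini-Hochberg threshold of 0.05 over all of them. Fold changes refer to this scale and understate the change of low transcripts. Rhythm was tested by the F statistic of 24 h cosine and sine coefficients over the 18 libraries of a diet, and the difference in rhythm that of their interactions with diet over 36. Levels came from a model of 12 group means. SEs of peak times were taken from the fitted coefficients by linear approximation, and 95% intervals are 1.96 SE to either side. The scripts were tested on simulated data.

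Read totals are not given by the tables, so depth is known only between libraries, from the steps between low values of 1315 rarely detected genes, 86.8% of which lay within 0.05 of a whole multiple; counting error is largest for low transcripts in shallow libraries, and absolute depth is unknown. The members and lists were chosen with earlier results of these data known. The text names all members, up to 4 genes per list by p, and 3 genes per member by likeness; 1 gene that this rule takes is not reported here, although it stayed in every test and count. Alternatives were other pseudocounts, other filters, 2 rescalings, a robust prior, a block for the replicate number, other rhythm terms, a rank test, pooled or single-time fits and leaving out each library; leaving out 4 libraries with adrenal transcripts or 3 nearer to another time, and removing each library's trend over GC content, were added after the data were seen. Coordinates are those of GENCODE M21 and RefSeq for GRCm38 (mm10), 1-based.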

Additional observations from a re-analysis of the deposited data

Results flagged for a closer look

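The diet difference of Ciart pointed in opposite directions at 2 times: all 3 high-fat mice were above all 3 chow mice at ZT4 (1.37 ± 0.25 log2 units) and below all 3 at ZT12 (-0.59 ± 0.25). The difference between the 2 was 1.96 log2 units. This contrast of ZT4 against ZT12 was not tested by itself, since both times were picked for it. The test of diet by time of day over all 6 times gave an adjusted p of 1.00 with cosine terms and 0.0917 with time as a factor (limma).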

How the results depend on the processing

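Members rhythmic under normal chow numbered 6 and under the high-fat diet 7 of 7 tested, and leaving out each library of the diet in turn gave 6 to 6 and 7 to 7. A filter at a mean FPKM of at least 5 leaves Bhlhe40 alone to test, and so gave 0 rhythmic members on chow, 1 on the high-fat diet and 0 pairs of member and time. The rank test over times gave 3 on chow. Pairs of member and time that differ between diets, 1 at first, were 2 with median ratio rescaling and 2 with upper quartile rescaling, both times with Bhlhe40 at ZT4 added, 0 in a fit on the time alone, and 1 to 2 over the refits that leave out 1 library. Members with a different level over the day, 0 at first, were 1 (Bhlhe40) with upper quartile rescaling, and 0 to 1 over the refits. No alternative moved the count of members with a different rhythm from 0. Without the 3 libraries nearer to another time the counts stayed at 6 on chow and 7 on the high-fat diet. They also stayed at 0 for the difference in rhythm, 0 for level and 1 for pairs of member and time. With a replicate block the counts were 7 on chow, with Bhlhe40 added at an adjusted p of 0.0362, 7 on the high-fat diet, 0 for the difference in rhythm, 0 for level and 1 pair of member and time. The block moved the high-fat peaks of Bhlhe40, Cry1 and Per2 by more than their SE, to 10.5, 16.2 and 12.8 h. Same-numbered libraries of a diet correlated at -0.605 to 0.444 (median 0.0408 over 52 pairs of libraries, 18 of them over 0.1). The median over 218 pairs with other numbers was -0.00940. These correlations cannot show whether mice of the same number shared a cage or a day. The level difference of Per2 over the day, -0.0197 log2 units, changed sign with median ratio rescaling (0.00496), upper quartile rescaling (0.0103), GC correction (0.00727) and without the 3 libraries nearer to another time (0.00490), and ran from -0.0797 to 0.0371 over the refits. Those of Cry1 (-0.138 to 0.000163) and Per1 (-0.0156 to 0.105) also changed sign in 1 refit each. None of these passed the test in any setting. Values below 0.5 FPKM, where depth limits precision, occurred in 30 libraries for Bhlhe41, 13 for Ciart, 6 for Cry1 and 4 for Per3.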
